A study of Mus musculus with 10 samples.

Results

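Hdac1, Hdac2, Mta1, Mta2, Mta3, Mbd2, Mbd3, Rbbp4 and Rbbp7 encode the deacetylase, MTA, methyl-CpG-binding and histone-binding subunits of the nucleosome remodeling and deacetylase (NuRD) complex. They were taken by gene symbol from a list of subunits, made with earlier results of these data known, and are 9 of the 31053 genes in the matrices. Their messenger RNA was followed in mouse embryonic cortex at E16.5, late in the birth of cortical neurons, that carried no, 1 or 2 copies of a disrupted allele of Gatad2b. Each gene was described over all cells of an embryo and within marker-defined cell classes.

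NuRD joins nucleosome sliding by a CHD helicase with removal of acetyl groups from histones, and is best known for silencing or tuning the enhancers and promoters to which it is recruited. Hdac1 and Hdac2 are its catalytic deacetylases and are shared with the Sin3, CoREST and MiDAC complexes. The MTA proteins are the scaffold that binds the deacetylases. Mbd2 and Mbd3 are mutually exclusive in the complex: Mbd2 binds methylated DNA, whereas mammalian Mbd3 does so weakly. Rbbp4 and Rbbp7 are paired histone chaperones that also serve Polycomb, chromatin assembly and histone acetyltransferase complexes. Gatad2b links the Mbd proteins to the helicase part of the complex. In the developing cortex NuRD subunits are exchanged as progenitors become neurons, and Hdac1 and Hdac2 are classically described as enriched in progenitors and in neurons, respectively.

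The cortex of each embryo gave 1 single-cell library (10X Genomics 3′ chemistry), with 3 WT embryos, 4 Gatad2b stop/+ (Het) embryos and 3 Gatad2b stop/stop (KO) embryos. The stop allele, Gatad2b tm1a(EUCOMM)Hmgu, is a germline gene trap present in every tissue of the mutants, on a C57BL/6N-A tm1Brd background shared by all groups, so nothing restricts it to the cortex or to one cell type. Cells were freed from whole cortices with papain, and the embryos were genotyped from the rest of the body. The p-values measure the spread between embryos, which need not come from separate litters.

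The promoters of Hdac2 and Mta1, which were both called higher in radial glia-like cells of KO embryos, and of the Rbbp4 and Rbbp7 pair, for which the KO and WT values over all cells were nearly equal, are shown to let their sequence be read beside the measurements. Promoters were matched for 6 of the 9 members. Each sequence holds the 250 bases before the RefSeq start in GRCm38.p6, 5′ to 3′ on the strand of the gene. Capitals mark matches on either strand to a GC box, searched as GGGCGG, or to a CCAAT box. They also mark the core of E2F sites, for which the letters TTGGCGC were searched. The last motif, the core of cyclic AMP response elements, was searched as TGACG, and no match overlapped another.
Hdac2, chr10:36974294-36974543, plus strand: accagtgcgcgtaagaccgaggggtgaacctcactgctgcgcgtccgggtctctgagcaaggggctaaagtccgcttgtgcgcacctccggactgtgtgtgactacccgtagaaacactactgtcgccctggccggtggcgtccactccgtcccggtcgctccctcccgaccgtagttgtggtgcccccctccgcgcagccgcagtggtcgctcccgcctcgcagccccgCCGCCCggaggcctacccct
Mta1, chr12:113098028-113098277, plus strand: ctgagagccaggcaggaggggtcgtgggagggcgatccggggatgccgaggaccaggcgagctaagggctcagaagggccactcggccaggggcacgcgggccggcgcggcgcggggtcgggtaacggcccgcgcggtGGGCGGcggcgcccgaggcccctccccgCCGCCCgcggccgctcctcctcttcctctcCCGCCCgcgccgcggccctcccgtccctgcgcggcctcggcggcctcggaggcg
Rbbp4, chr4:129335371-129335620, minus strand: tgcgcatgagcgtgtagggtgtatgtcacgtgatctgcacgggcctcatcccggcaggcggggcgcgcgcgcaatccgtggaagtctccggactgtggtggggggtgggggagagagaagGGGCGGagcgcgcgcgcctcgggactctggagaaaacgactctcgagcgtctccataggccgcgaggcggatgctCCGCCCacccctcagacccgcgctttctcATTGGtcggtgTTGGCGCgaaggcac
Rbbp7, chrX:162760122-162760371, plus strand: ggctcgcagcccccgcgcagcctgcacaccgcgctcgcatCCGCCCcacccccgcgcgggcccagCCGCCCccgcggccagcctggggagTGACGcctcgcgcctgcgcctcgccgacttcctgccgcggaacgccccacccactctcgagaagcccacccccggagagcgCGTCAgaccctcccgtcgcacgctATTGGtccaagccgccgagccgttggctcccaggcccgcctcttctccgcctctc

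Hdac2 had 1 GC box and Mta1 had 3, Rbbp4 had 2 GC boxes, 1 CCAAT box and 1 E2F core, and Rbbp7 had 2 GC boxes, 1 CCAAT box and 2 cyclic AMP response cores. Of the promoters not printed, Mta2 had 2 GC boxes and Mbd3 had 1 GC box and 3 CCAAT boxes. GC boxes were found in 32.7% and CCAAT boxes in 33.8% of 32851 promoters of the same length, whereas the response core was found in 17.8% and the E2F core in 1.97%. The 6 promoters held between 14 (Mbd3) and 39 (Mta1) CpG sites. These matches describe letters and not binding.

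In GRCm38, Hdac1 (ENSMUSG00000028800) lies on chromosome 4 from 129516104 to 129542713 and Rbbp4 (ENSMUSG00000057236) on the same chromosome from 129307100 to 129335370. Hdac2 (ENSMUSG00000019777) and Mbd3 (ENSMUSG00000035478) are both on chromosome 10, from 36974544 to 37001889 and from 80392539 to 80399550. Mta1 (ENSMUSG00000021144) is on chromosome 12 from 113098278 to 113137206, Mta2 (ENSMUSG00000071646) on chromosome 19 from 8941875 to 8952303, and Mta3 (ENSMUSG00000055817) on chromosome 17 from 83706163 to 83821516. Mbd2 (ENSMUSG00000024513) is on chromosome 18 from 70568189 to 70626131 and Rbbp7 (ENSMUSG00000031353) on the X chromosome from 162760402 to 162779092. All are protein-coding. Rbbp4 is overlapped on the other strand by Sync and Gm26722, and Rbbp7 by Txlng. Whether counting used strand is not stated in the sources used here, so reads of these neighbors may not be separable. A processed pseudogene of Hdac1, Gm10093 on chromosome 17, is 99.4% identical to Hdac1 over 1444 aligned bases, which covers positions 85 to 1528 of the 2038 bases of the Hdac1 transcript and not its 3′ end. Gm10093 had 16 to 33 unique molecular identifiers (UMIs, 1 per captured transcript) per embryo, against 3397 to 5240 for Hdac1.

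Of 80071 cell barcodes, the 65779 with 1000 UMIs or more, of which no more than 10% were mitochondrial, were kept, 5147 to 8103 per embryo, with 82872641 to 123737385 UMIs per embryo. Any 2 libraries shared 8 to 31 barcodes. Gatad2b was at 131 to 139 CPM (UMIs scaled to a common library size, here by edgeR's TMM) in WT, 89.8 to 95.6 in Het and 50.9 to 57.3 CPM in KO, so the labels were borne out in every embryo (log2 fold change -1.32, SE 0.050, adjusted p = 1.11e-07 in KO vs WT). Library names carry 1 of 2 prefixes of unstated meaning: the 3 WT embryos and Het replicate 4 have the first, and the other 3 Het embryos and all KO embryos have the second, so KO vs WT and the prefix cannot be told apart without Het. Markers of choroid plexus (8 genes) summed to between 7.57 and 1827 CPM in WT embryos and to at most 7.38 CPM in Het and KO embryos. Endothelial-like cells were 6.08% of cells in Het replicate 3 and at most 0.730% in every other embryo. Progenitor-like cells (radial glia-like, subventricular zone-like and a cluster of dividing cells) were 6.11% to 7.89% of cells in WT, 8.15% to 10.1% for Het and 11.7% to 13.0% for KO. The median mitochondrial share of UMIs was 3.60% to 3.97% in the 4 embryos with the first prefix and 4.31% to 4.66% in the other 6. Median UMIs per cell were 10795 to 14844 for WT embryos, 13218 to 14860 for Het and 14324.5 to 17077.5 for KO. The unnamed low-UMI cluster 15 held 3.91% to 4.55% of the cells of WT embryos, 0.780% to 3.30% for Het and 0.563% to 1.89% for KO. In sums over all cells, fewer cells of a type and less RNA per cell cannot be told apart.

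Over all cells, Hdac1 rose 1.45-fold and Mbd2 1.20-fold in KO vs WT (plots of members by embryo), and the other members were not called. Of the 9 members, 2 were called higher in KO (Hdac1 and Mbd2) and 0 lower. A call needed an adjusted p under 0.05 (edgeR's quasi-likelihood test, Benjamini-Hochberg over 17647 genes) and an absolute log2 fold change over 0.25, and 24.5% of all genes met it in this comparison. The share of members called was thus near that of all genes. The adjusted p alone was passed by 4 members (Hdac1, Hdac2, Mta1 and Mbd2) and by 36.8% of all genes. In Het vs WT 1 member was called (Hdac1), against 2.98% of all genes, and in KO vs Het 1 (Hdac1), against 5.5%. The 3 comparisons share embryos and are given side by side. The median log2 fold change of the members was 0.10 in KO vs WT, with 7 of 9 above 0, beside -0.01 over all genes. With each embryo left out in turn, the count called in KO vs WT ranged from 1 to 4, the highest being without WT replicate 1. The share of all genes called in those fits is not given here, so these counts are not set against it.

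**Figure D1:**
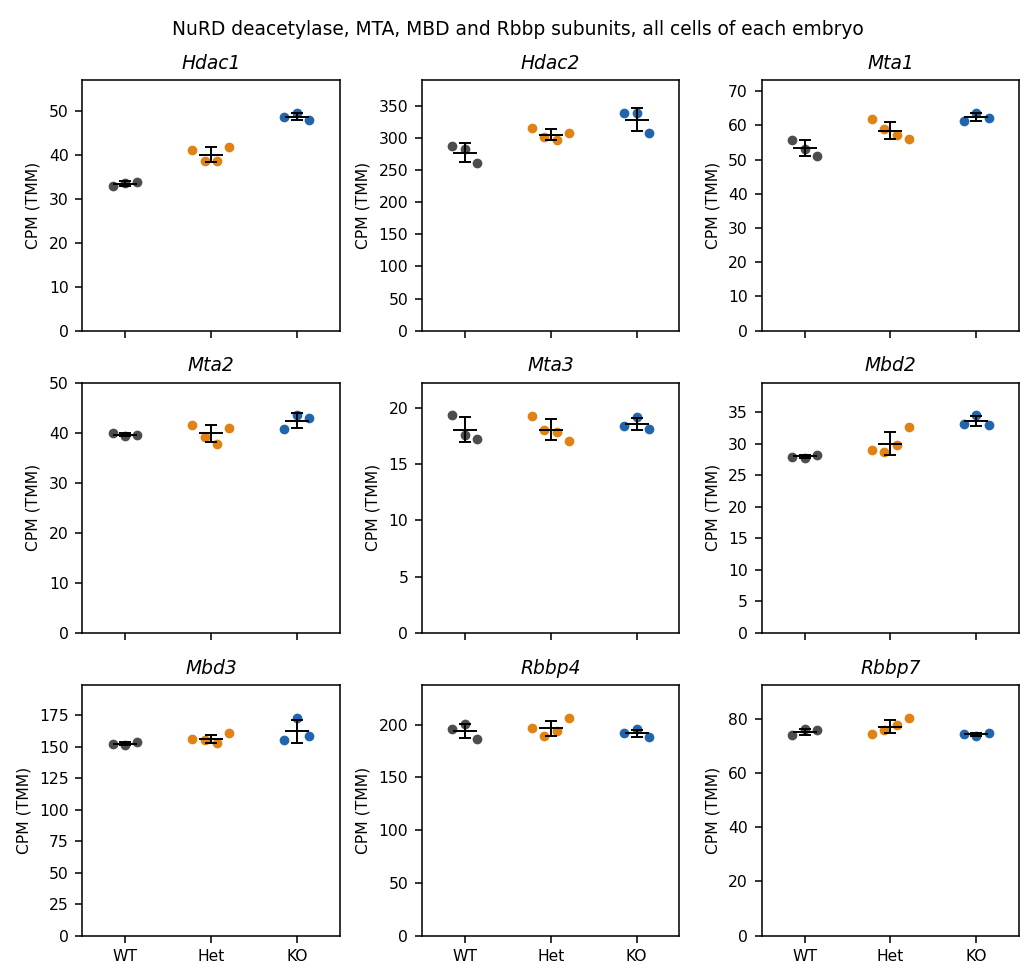
TMM-normalized CPM of the 9 genes over all cells, 1 dot per embryo (3 WT, 4 Het, 3 KO) with group mean and SD. Hdac1 and Mbd2 separate KO from WT and Het embryos without overlap, whereas Mta3, Rbbp4 and Rbbp7 overlap in all groups.

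Hdac1 was at 33.0, 33.6 and 34.0 CPM in the WT embryos, at 41.3, 38.6, 38.6 and 41.9 CPM in the Het embryos, and at 48.7, 49.7 and 48.0 CPM in the KO embryos. The 3 groups did not overlap, and their order followed the number of mutant alleles. Hdac1 rose by a log2 fold change of 0.54 in KO vs WT (SE 0.040, 1.45-fold, adjusted p = 6.98e-06), 0.26 in Het vs WT (SE 0.037, adjusted p = 0.00857) and 0.28 in KO vs Het (SE 0.037, adjusted p = 0.00121). Only the KO vs WT difference was far from the fold threshold, and it was 0.53 in cells with at least 3000 UMIs and 0.59 in cells with at most 5% mitochondrial UMIs, both called. The Het vs WT call was lost with no filter on low counts, a replicate block, sex as a covariate, doublets removed or at least 3000 UMIs, and without WT replicate 1, Het replicate 1 or Het replicate 4. In each of these fits the value was under the fold threshold (0.24 to 0.25), and without WT replicate 1 the adjusted p was also over 0.05 (adjusted p = 0.0567). With the 11 tested classes given equal weight, the values were 0.32 in KO vs WT (adjusted p = 0.0102), 0.26 in Het vs WT (adjusted p = 0.077) and 0.06 in KO vs Het (adjusted p = 0.758). This setting was a limma test on the mean of log2(CPM + 1) over the classes. Small classes such as microglia-like and erythroid-like cells thus counted as much as large ones, also for genes with few UMIs there.

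Hdac2 was at 288, 284 and 262 CPM in WT, at 317, 302, 297 and 308 CPM in Het, and at 340, 339 and 308 CPM in KO. Every mutant embryo was above every WT embryo, but 1 KO embryo lay among the Het embryos. The log2 fold change was 0.24 in KO vs WT (SE 0.052, adjusted p = 0.00450), just under the fold needed for a call, and 0.14 in Het vs WT (SE 0.049, adjusted p = 0.105). With equal weight of classes it was 0.04 in KO vs WT (limma, adjusted p = 0.678). In the fits by class, Hdac2 was above 0 in 9 of 11 classes in KO vs WT. It was lowest in microglia-like cells (-1.02, not called), a class with as few as 21 cells in an embryo. The part of such small classes in the equal-weight value was not tested.

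Among the MTA scaffold genes, Mta1 was at 55.6, 53.2 and 51.1 CPM in WT, at 61.7, 58.8, 57.2 and 55.9 CPM in Het, and at 61.3, 63.6 and 62.1 CPM in KO. All mutant embryos were above the WT embryos, with KO and Het overlapping. Its log2 fold change of 0.23 in KO vs WT (SE 0.045, adjusted p = 0.00324) was under the fold threshold, and that in Het vs WT was 0.13 (adjusted p = 0.0859). Mta2, found in NuRD of most tissues, was at 39.5 to 40.1 CPM in WT, 37.9 to 41.7 in Het and 40.9 to 43.6 CPM in KO (log2 fold change 0.10, SE 0.042, adjusted p = 0.0861). Mta3 was at 17.2 to 19.3 CPM in WT, 17.0 to 19.2 in Het and 18.1 to 19.1 CPM in KO (0.04, SE 0.057, adjusted p = 0.625). The KO and WT embryos were thus separated for Mta1 and Mta2 and mixed for Mta3.

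The methyl-DNA binder Mbd2 was at 27.9, 27.8 and 28.3 CPM in WT, at 28.9, 28.7, 29.8 and 32.6 CPM in Het, and at 33.2, 34.5 and 33.0 CPM in KO. KO embryos were above all others, and the Het embryos lay just above WT except for Het replicate 4, the 1 with the prefix of the WT libraries, which was near the KO embryos. Mbd2 rose by a log2 fold change of 0.26 in KO vs WT (SE 0.048, 1.20-fold, adjusted p = 0.00192), while the values were 0.10 in Het vs WT (SE 0.045, adjusted p = 0.174) and 0.16 in KO vs Het (SE 0.045, adjusted p = 0.0511). This call was close to the fold threshold, and was lost without WT replicate 2 (0.25), without KO replicate 2 (0.24), with sex as a covariate (0.24, with 19.5% of genes called) and with equal weight of classes (0.13, adjusted p = 0.326). Mbd3, which takes the place of Mbd2 in the other form of NuRD, was at 151 to 153 CPM in WT, 153 to 161 in Het and 155 to 173 CPM in KO (0.09, SE 0.043, adjusted p = 0.117).

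Over all cells the histone-binding pair moved least. Rbbp4 was at 187 to 200 CPM in WT, 189 to 206 in Het and 188 to 195 CPM in KO, with a log2 fold change of -0.02 in KO vs WT (SE 0.042, approximate interval by 2 SE from -0.10 to 0.07, adjusted p = 0.776). Rbbp7 was at 74.1 to 76.2 CPM in WT, 74.5 to 80.4 in Het and 73.9 to 74.8 CPM in KO (-0.02, interval -0.09 to 0.05, adjusted p = 0.706). In this fit over all cells, the intervals exclude the fold threshold in either direction for both genes. With library prefix as a covariate the signs turned, to 0.077 for Rbbp4 and 0.058 for Rbbp7 (adjusted p = 0.490 and 0.549). A sum over all cells does not exclude changes within a class. Below, Rbbp7 was called lower in layer I-like cells, and Rbbp4 passed the adjusted p alone in layer V-VI-like cells.

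Library prefix was entered as a covariate, and KO vs Het was fitted within the second prefix alone (3 KO and 3 Het embryos). In the covariate fit the prefix effect comes only from Het replicate 4 against the other 3 Het embryos. Every value given with the prefix covariate thus rests on that embryo. With the covariate, KO vs WT gave 0.63 for Hdac1 (SE 0.057, adjusted p = 0.000258) and 0.42 for Mbd2 (SE 0.053, adjusted p = 0.00128), both called, as were 8.31% of all genes. Within the second prefix, KO vs Het gave 0.30 for Hdac1 (adjusted p = 0.00194, called, as were 6.14% of genes) and 0.20 for Mbd2 (adjusted p = 0.0101, under the fold). For Hdac2 and Mta1 the covariate left 0.25 and 0.14 in KO vs WT (adjusted p = 0.106 and 0.251).

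The cell classes were used to ask where each gene is found and where it differed. Clustering gave 26 clusters, of which 7 stayed unnamed and the others formed 12 classes by their marker genes. The members and other NuRD genes were left out of the genes used to cluster. The unnamed clusters include clusters 4 (4422 cells), 6 (4063 cells) and 13 (1819 cells). Cluster 13 had cell division genes such as Cenpf and Ccnb1 among its leading genes. Unnamed clusters count over all cells but are in no class and in neither the progenitor-like nor the neuron-like sum. The class that scored highest on markers of the ganglionic eminence (7 of 10 detected, 0 among its 10 leading genes) was led by cell division genes such as Top2a, Mki67 and Rrm2, and is called the dividing cluster 14 here. In WT the genes differed in how unevenly they were spread (plot of levels by class). Values are CPM within a class, here without TMM, and are compared between classes for 1 gene, not between genes. Sums over marker or cell-cycle genes, and the values for Xist and the Y chromosome, are also without TMM throughout.

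Hdac1 was the most progenitor-weighted member. It was at 94.0 ± 7.39 CPM (SD, n = 3) in the dividing cluster 14, 89.4 ± 2.00 in subventricular zone-like, 88.6 ± 5.06 in radial glia-like and 86.0 ± 4.44 in mural and fibroblast-like cells, 4 classes whose ranges overlapped. It was at 33.5 ± 2.07 CPM in interneuron-like, 29.3 ± 0.865 in layer II-IV-like, 20.5 ± 1.73 in layer V-VI-like and 15.6 ± 1.33 in striatal inhibitory-like cells, and the ranges of these 4 did not overlap. Layer I-like cells (29.8 ± 1.62 CPM) overlapped the layer II-IV-like class. Summed progenitor-like cells had 3.48 ± 0.270 times the level of neuron-like cells in WT.

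Hdac2 had the opposite balance, with 0.854 ± 0.0434 times the neuron-like level in progenitor-like cells. It was highest in interneuron-like cells (314 ± 12.5 CPM), with subventricular zone-like (312 ± 12.9), layer II-IV-like (305 ± 13.2) and striatal inhibitory-like cells (302 ± 11.7) overlapping them. Layer V-VI-like cells (285 ± 18.2) and the dividing cluster 14 (276 ± 18.8) overlapped their neighbors in turn. It was lower in radial glia-like cells (180 ± 10.2 CPM), and lowest outside the erythroid-like class in mural and fibroblast-like (111 ± 2.82) and microglia-like cells (97.1 ± 13.4). The low Hdac2 of radial glia-like cells set them apart from the other 2 progenitor-like classes, whose ranges lay above theirs.

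The MTA genes were led by different classes. Mta1 was at 74.1 ± 3.41 CPM in the dividing cluster 14 and 67.9 ± 5.69 in radial glia-like cells, with a range of 2.27-fold from the highest to the lowest class outside erythroid-like cells. Mta2 was highest in subventricular zone-like cells (89.7 ± 4.19 CPM), above all other classes without overlap, and was at 23.0 ± 0.977 CPM in layer I-like cells, the lowest outside the erythroid-like class. Mta3 went the other way, at 29.2 ± 6.82 CPM in layer I-like and 24.8 ± 1.26 in layer II-IV-like cells but 4.82 ± 0.979 in striatal inhibitory-like cells. The first 2 of these overlapped, and the last lay below every other class.

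Mbd2 and Mbd3 were also led by different classes. Mbd2 was at 89.3 ± 9.69 CPM in mural and fibroblast-like and 64.8 ± 6.37 in endothelial-like cells, each above every class below it, and reached only 20.1 ± 1.85 CPM in subventricular zone-like cells. Mbd3 was at 255 ± 23.4 CPM in the dividing cluster 14, above all other classes without overlap, and at 130 ± 9.56 CPM in microglia-like cells, its lowest class but erythroid-like cells. Within the progenitor-like classes the subventricular zone-like cells thus had the lowest Mbd2, while their Mbd3 (207 ± 5.16 CPM) overlapped that of radial glia-like cells (203 ± 8.74 CPM).

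Rbbp4 was at 363 ± 22.9 CPM and Rbbp7 at 160 ± 7.39 CPM in the dividing cluster 14, above all other classes without overlap. Rbbp4 was lowest outside erythroid-like cells in the layer I-like class (140 ± 16.6 CPM). Rbbp7 was at 137 ± 1.06 CPM in radial glia-like cells but only 71.4 ± 6.34 CPM in subventricular zone-like cells, which overlapped the neuron-like classes. The layer I-like class, early-born cells that mark the cortical surface, had 113 ± 7.52 CPM of Rbbp7 and so held more of it than any other neuronal class.

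**Figure D2:**
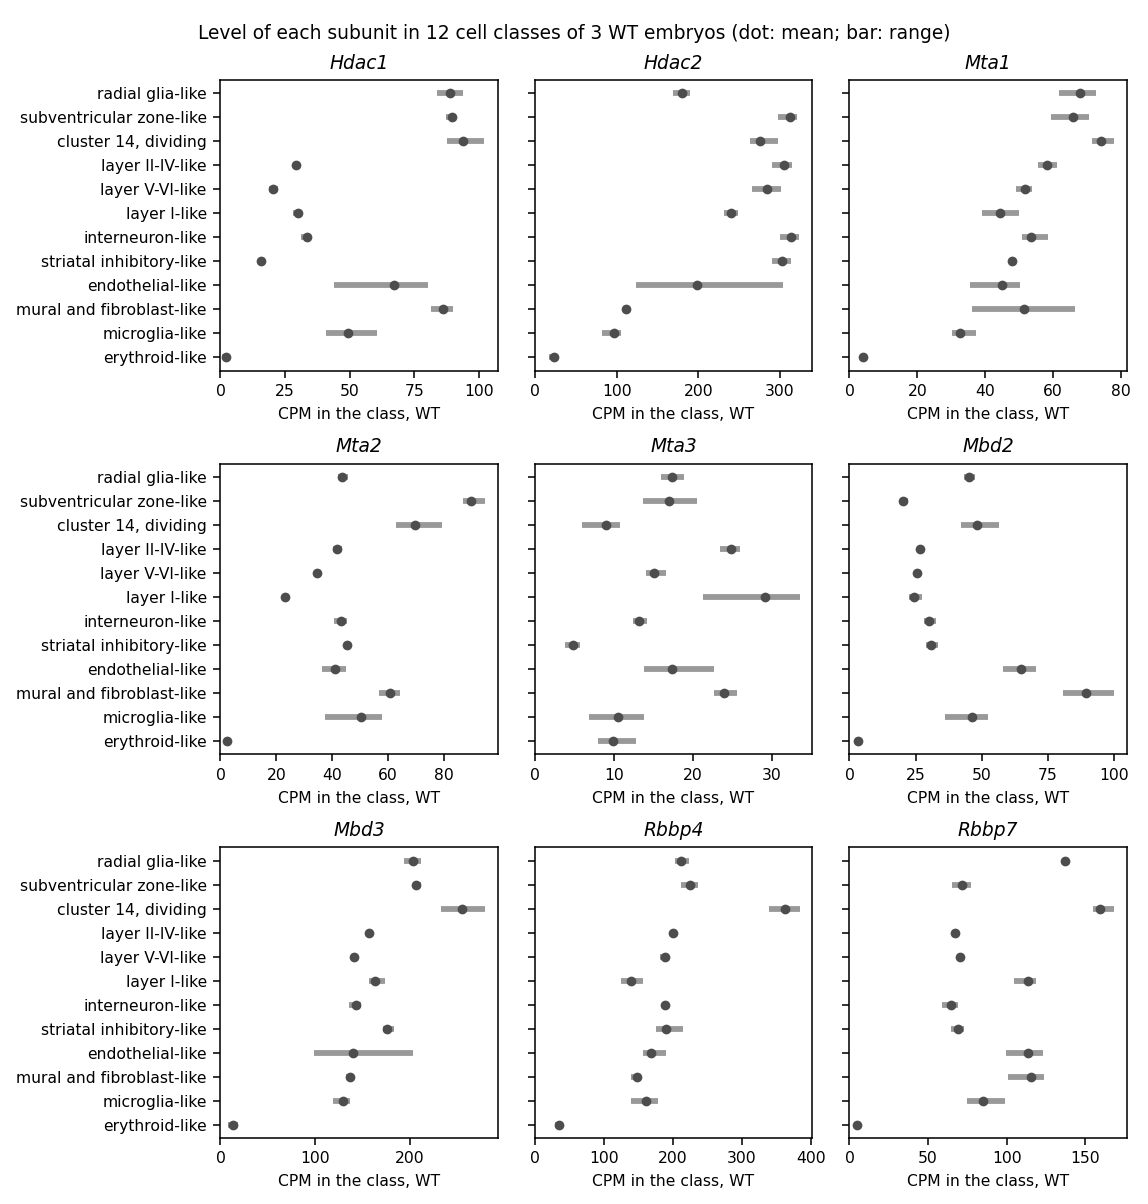
CPM of each gene within 12 classes of the 3 WT embryos, as mean (dot) and range (bar). By their means, Hdac1, Mta1, Mbd3, Rbbp4 and Rbbp7 peak in the dividing cluster 14 and Hdac2 in interneuron-like cells. Mta2 peaks in subventricular zone-like cells, Mta3 in layer I-like cells and Mbd2 in mural and fibroblast-like cells.

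For each gene at 20 CPM or more on average, the 3 genes with the most similar levels over the 12 classes were found by Pearson's r on log2(CPM + 1) among 6761 genes. These values describe 12 classes taken from the same 3 libraries. They include erythroid-like cells, which lay below every other class for each member compared. Hdac1, for example, was at 2.18 CPM there and at 15.6 CPM in striatal inhibitory-like cells, the next lowest class. The part of erythroid-like cells in the r values was not tested. The nearest genes were Etfa, Pnrc2 and Msl3 for Hdac1 (r = 0.97 for all 3) and Marcksl1, Zfp512 and Zfp386 for Hdac2 (0.99 for all 3). They were Ipo11, E2f4 and Tbc1d1 for Mbd2 (0.97 to 0.98), Sf3a3, Bola1 and Sf3b4 for Mbd3, and Rhno1, Hmgb1 and Lsm8 for Rbbp4 (all 0.99 or more). Mta1 was nearest to 4930453N24Rik, Mta2 to Polr2a and Rbbp7 to Mrpl51 (0.99, 0.98 and 0.99), and Mta3 was below the level. Between members, r was lowest for Hdac2 with Mbd2 (0.49) and with Hdac1 (0.54), and highest for Mta1 with Mbd3 (0.98).

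Within the 11 classes that had at least 20 cells in every embryo, 92 of the 99 pairs of member and class passed the filter on low counts. The 7 that did not were Hdac1, Mta1, Mta2, Mbd2 and Rbbp7 in erythroid-like cells, and Mta1 and Mta3 in microglia-like cells. In KO vs WT 10 pairs were called higher and 1 lower (plot of fold changes by class), against 14.5% of all pairs of gene and class. In Het vs WT 2 pairs were called higher, against 1.59%, and in KO vs Het 4 were higher and 1 lower, against 3.79%. The members as a set were thus called about as often as all genes. Hdac1 was called in 5 of its 10 fitted classes in KO vs WT, Hdac2 and Mbd2 in 2 each, and Mta1 and Rbbp7 in 1 each. Mta2, Mta3, Mbd3 and Rbbp4 were called in 0 classes, although Mta2 in layer II-IV-like cells (0.14, adjusted p = 0.0356) and Rbbp4 in layer V-VI-like cells (-0.17, adjusted p = 0.0116) passed the adjusted p alone.

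**Figure D3:**
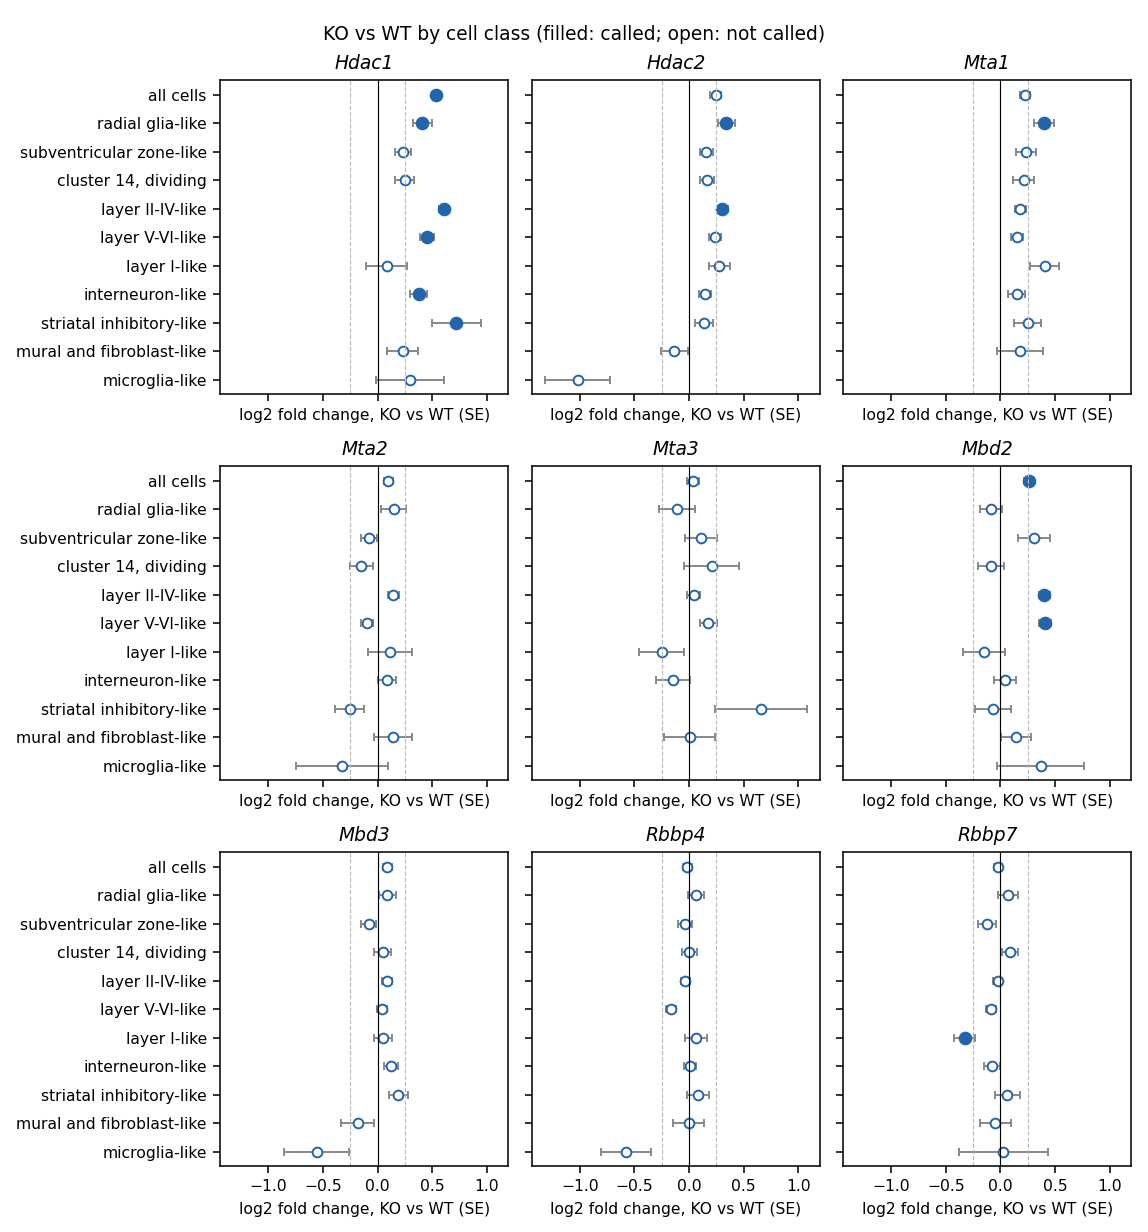
Log2 fold change of KO vs WT with SE derived from edgeR's F value, by class and over all cells. Filled dots were called and dashed lines mark the fold threshold of 0.25. Filled dots are seen for Hdac1 in 5 classes, for Hdac2 and Mbd2 in 2 classes each, and for Mta1 and Rbbp7 in 1 class each.

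In layer II-IV-like cells, the upper-layer excitatory neurons, 3 members were called in KO vs WT, against 30.3% of 14303 genes. Hdac1 was at 28.8, 28.1 and 29.5 CPM in WT, at 35.5, 34.1, 32.5 and 35.6 CPM in Het, and at 43.3, 44.7 and 43.7 CPM in KO. The 3 groups were fully separated. Hdac1 rose in KO vs WT (log2 fold change 0.61, SE 0.046, adjusted p = 2.74e-07), in Het vs WT (0.26, SE 0.044, adjusted p = 0.00383, with 6.76% of genes called) and in KO vs Het (0.35, SE 0.043, adjusted p = 7.79e-05, with 11.4% called). With each embryo left out in turn, the Het vs WT value ranged from 0.24 to 0.28, so that call sat at the fold threshold.

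Mbd2 in the same cells was at 26.8, 25.8 and 25.7 CPM in WT, at 28.6, 27.0, 27.1 and 30.5 CPM in Het, and at 33.9, 35.4 and 34.2 CPM in KO. The Het embryos were above WT but below KO. It rose in KO vs WT (0.40, SE 0.053, adjusted p = 4.23e-05) and in KO vs Het (0.28, SE 0.049, adjusted p = 0.00125). Hdac2 was at 283 to 311 CPM in WT, 329 to 344 in Het and 349 to 392 CPM in KO, again without overlap, and rose in KO vs WT (0.31, SE 0.050, adjusted p = 0.000265). Within the second prefix alone, KO vs Het gave 0.36 for Hdac1 (adjusted p = 0.000131) and 0.32 for Mbd2 (adjusted p = 0.000437), with 12.2% of genes called.

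The layer II-IV-like class is made of clusters 0 and 1. Cluster 1 held 37.3% to 41.3% of its cells in WT, 43.3% to 49.0% for Het and 54.1% to 61.1% for KO. Cluster 1 also had more Hdac1 in WT (40.5 to 43.7 CPM) than cluster 0 (22.7 to 22.9 CPM). Within cluster 0 alone, Hdac1 was at 22.7 to 22.9 CPM in WT and 30.2 to 34.3 in KO (0.49, SE 0.069, adjusted p = 7.13e-05) and Mbd2 at 24.0 to 26.0 and 31.8 to 35.6 CPM (0.42, adjusted p = 0.000174), with 27.5% of genes called. Within cluster 1 alone, where 25.7% of genes were called, KO vs WT gave 0.46 for Hdac1 (adjusted p = 0.000270), 0.32 for Mbd2 (adjusted p = 0.00488) and 0.39 for Hdac2 (adjusted p = 7.06e-05), while Hdac2 in cluster 0 had 0.23 (adjusted p = 0.00402, under the fold). In Het vs WT, Hdac1 was called in neither cluster alone, with 0.25 in cluster 0 (adjusted p = 0.0316, under the fold) and 0.16 in cluster 1 (adjusted p = 0.207). Within the layer II-IV-like class, markers of subventricular zone cells (9 genes, of which 7 rose in KO vs WT and 0 fell) summed to 298 to 321 CPM in WT and 527 to 616 CPM in KO, and those of layers V and VI (10 genes, 3 rose and 2 fell) to 325 to 396 and 496 to 540 CPM. Their part in the results for Hdac1, Mbd2 and Hdac2 was not tested.

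In layer V-VI-like cells, the deep-layer excitatory neurons, Hdac1 and Mbd2 were called in KO vs WT, against 24.2% of genes. Hdac1 was at 18.3, 20.5 and 21.6 CPM in WT, at 21.2, 21.3, 21.5 and 22.8 CPM in Het, and at 27.0, 28.3 and 27.3 CPM in KO. Unlike in layer II-IV-like cells, the Het embryos overlapped WT, and the KO embryos stood above both. Hdac1 rose in KO vs WT (0.45, SE 0.063, adjusted p = 0.000115) and KO vs Het (0.34, SE 0.059, adjusted p = 0.00149, with 9.42% of genes called).

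Mbd2 was at 24.5, 24.9 and 25.6 CPM in WT, at 25.3, 26.1, 25.1 and 28.5 CPM in Het, and at 34.0, 33.0 and 32.3 CPM in KO. The highest Het embryo was again Het replicate 4, and the KO embryos were above all others. Mbd2 rose by 0.41 in KO vs WT (SE 0.056, adjusted p = 0.000106) and by 0.33 in KO vs Het (SE 0.052, adjusted p = 0.000708). Within the second prefix the KO vs Het values were 0.37 for Hdac1 (adjusted p = 0.000206) and 0.38 for Mbd2 (adjusted p = 0.000106), with 10.6% of genes called. Rbbp4 was at 177 to 191 CPM in WT, 177 to 189 in Het and 165 in each KO embryo, and its difference of -0.17 was under the fold. Hdac2 had 0.24 (SE 0.055, adjusted p = 0.00439), also under the fold. In this class the markers of radial glia (12 genes, 3 rose and 1 fell) summed to 139 to 196 CPM in WT and 217 to 243 CPM in KO, and those of the subventricular zone (9 genes, 3 rose and 1 fell) to 216 to 318 and 282 to 313 CPM. Those of layers II to IV (9 genes, 0 rose and 6 fell) summed to 811 to 917 CPM in WT and 692 to 822 CPM in KO, and the class's own markers (10 genes, 3 rose and 4 fell) to 1584 to 1633 and 1985 to 2194 CPM. Their part was not tested.

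**Figure D4:**
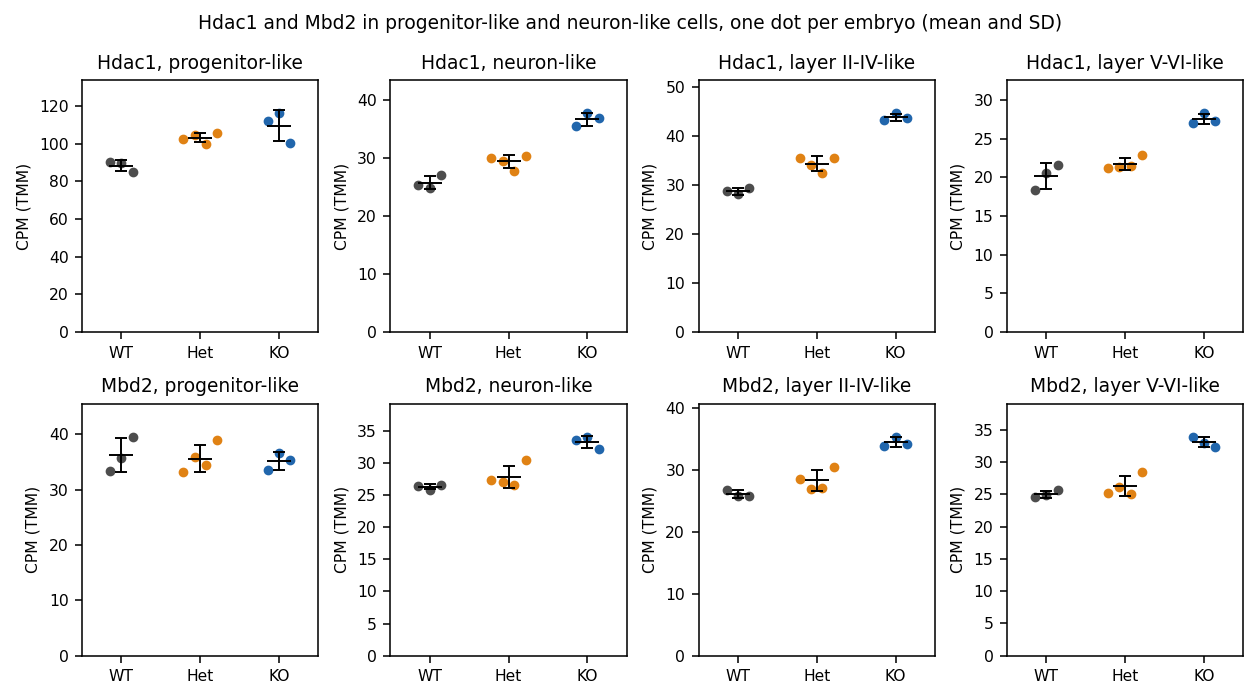
TMM-normalized CPM of Hdac1 (upper row) and Mbd2 (lower row) by embryo with group mean and SD. In progenitor-like cells KO and WT embryos of Mbd2 overlap at 33.4 to 39.6 CPM in WT and 33.5 to 36.7 CPM in KO, whereas in the pooled neuron-like cells and in the layer II-IV- and V-VI-like classes every KO embryo is above every WT embryo for both genes.

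Radial glia-like cells, the neural stem cells of the ventricular zone, had 3 members called in KO vs WT, against 19.9% of genes. Hdac1 was at 83.6, 92.4 and 85.1 CPM in WT, at 107, 99.6, 104 and 113 CPM in Het, and at 121, 122 and 106 CPM in KO. Every mutant embryo was above WT, and Het and KO overlapped. It rose in KO vs WT (0.41, SE 0.088, adjusted p = 0.00359), while Het vs WT gave 0.28 (SE 0.084, adjusted p = 0.0885). Hdac2 was at 163 to 189 CPM in WT, 186 to 213 in Het and 213 to 237 CPM in KO (0.34, SE 0.079, adjusted p = 0.00582).

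Mta1 in radial glia-like cells was at 61.4, 68.2 and 70.3 CPM in WT, at 95.5, 86.3, 93.2 and 84.0 CPM in Het, and at 85.6, 94.6 and 85.6 CPM in KO. The Het embryos were as high as the KO embryos, with KO vs Het at -0.03 (approximate interval by 2 SE from -0.19 to 0.14). Mta1 rose in KO vs WT (0.40, SE 0.092, adjusted p = 0.00571) and in Het vs WT (0.42, SE 0.087, adjusted p = 0.0221, with 2.15% of genes called). The Het call was lost, with adjusted p up to 0.0834, without any of WT replicates 1, 2 and 3 or Het replicates 1 and 3. It was also lost with sex as a covariate (0.40, adjusted p = 0.0661) and at clustering resolution 0.8 (0.39, adjusted p = 0.0554). The prefix covariate gave 0.33 (adjusted p = 0.360) in Het vs WT and 0.27 (adjusted p = 0.403) in KO vs WT. Hdac2 lost its call with that covariate as well (0.36, adjusted p = 0.151), and Hdac1 had 0.53 (adjusted p = 0.0481). In this class all 5 markers of oligodendrocyte precursors fell in KO vs WT, with sums of 538 to 698 CPM in WT, 271 to 681 in Het and 245 to 273 CPM in KO, and the 12 markers of radial glia summed to 16525 to 17950 CPM in WT and 13677 to 15654 in KO (3 rose and 4 fell). Markers of the subventricular zone, where Hdac2 was higher, summed to 472 to 669 CPM in WT, 752 to 813 in Het and 718 to 895 CPM in KO (9 genes, 4 rose and 0 fell). Cell-cycle genes summed to 1417 to 1658 CPM in WT and 1684 to 1930 CPM in KO (11 genes, 2 rose and 0 fell). The part of these shifts in the results for Hdac1, Hdac2 and Mta1 was not tested.

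In the other progenitor-like classes no member was called in KO vs WT. Of all genes, 15.3% were called in subventricular zone-like cells and 4.33% in the dividing cluster 14. In subventricular zone-like cells, the intermediate progenitors, Hdac1 was at 85.8 to 88.7 CPM in WT and 92.3 to 109 in KO (0.23, adjusted p = 0.0369), and in the dividing cluster 14 at 87.8 to 98.7 and 104 to 117 CPM (0.25, adjusted p = 0.113). Mta1 was at 58.6 to 69.2 CPM in WT and 72.5 to 82.7 in KO in subventricular zone-like cells (0.23, adjusted p = 0.0735). In each of these comparisons, KO embryos lay above WT without passing both parts of the call.

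Of the inhibitory classes, interneuron-like cells had Hdac1 at 34.3, 30.8 and 34.2 CPM in WT, at 37.1, 39.7, 34.6 and 38.2 CPM in Het, and at 42.4, 40.4 and 45.8 CPM in KO. The groups did not overlap. Hdac1 rose in KO vs WT (0.38, SE 0.079, adjusted p = 0.00332, with 17.4% of genes called), and was not called with the prefix covariate (0.41, adjusted p = 0.138). The class joins 4 clusters, of which cluster 3 held 51.2% to 54.0% of its cells in WT and 38.9% to 44.4% in KO, and cluster 11 held 18.4% to 20.0% and 21.7% to 30.8%. Its markers of radial glia (12 genes, 2 rose and 0 fell) summed to 522 to 570 CPM in WT and 693 to 723 CPM in KO, and those of the subventricular zone (9 genes, 3 rose and 0 fell) to 88.2 to 99.8 and 115 to 181 CPM. Those of the ganglionic eminence (10 genes, 3 rose and 0 fell) summed to 757 to 858 and 916 to 986 CPM. The part of these shifts in the Hdac1 result was not tested. Mbd2 in these cells was at 28.0 to 32.0 CPM in WT and 27.5 to 32.7 in KO (0.04, SE 0.098, adjusted p = 0.803). In striatal inhibitory-like cells Hdac1 was at 14.4, 14.9 and 16.9 CPM in WT, at 27.9, 23.9, 19.1 and 27.9 CPM in Het, and at 17.1, 31.2 and 27.6 CPM in KO. The WT embryos were lowest, with 1 KO embryo just above them. It rose in KO vs WT (0.72, SE 0.22, adjusted p = 0.0495, with 7.39% of genes called), on 28 to 79 UMIs per embryo. In this class the markers of layers II to IV (9 genes, 1 rose and 0 fell) summed to 599 to 678 CPM in WT, 759 to 853 for Het and 805 to 985 CPM for KO, and those of the subventricular zone (9 genes, 2 rose and 0 fell) to 63.8 to 81.0 in WT and 78.8 to 121 CPM in KO. Their part was not tested. This call was lost under DESeq2 (adjusted p = 0.116), with the prefix covariate (0.99, adjusted p = 0.346), with sex as a covariate, with at least 3000 UMIs or at most 5% mitochondrial UMIs per cell, and without any of WT replicates 1, 2 and 3, Het replicates 1 and 2 or KO replicates 2 and 3. Of these omissions, that of KO replicate 2 gave the highest adjusted p (0.53, adjusted p = 0.280).

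Rbbp7 was the 1 member called lower, in layer I-like cells. It was at 116, 104 and 118 CPM in WT, at 124, 116, 116 and 122 CPM in Het, and at 86.8, 85.1 and 96.1 CPM in KO. All KO embryos were below all others. Rbbp7 fell by 0.33 on the log2 scale in KO vs WT (SE 0.096, adjusted p = 0.0468, with 5.55% of genes called) and by 0.41 in KO vs Het (SE 0.090, adjusted p = 0.0271, with 0.959% called). Within the second prefix the latter was -0.41 (adjusted p = 0.0333), with 1.14% of genes called. The KO vs WT call was lost under DESeq2 (adjusted p = 0.169), with the prefix covariate (-0.29, adjusted p = 0.501), with doublets removed (-0.30), with at most 5% mitochondrial UMIs (-0.24, adjusted p = 0.209), with no filter on low counts, only the 2 groups or no integration (adjusted p from 0.0518 to 0.0534), and without any embryo other than WT replicate 2 or Het replicate 4 (up to adjusted p = 0.169), and the sign stayed negative in all of them. The KO vs Het call was lost under DESeq2 (adjusted p = 0.0636), with doublets removed (-0.39, adjusted p = 0.0723), with at most 5% mitochondrial UMIs (-0.32, adjusted p = 0.192) and without Het replicate 1 or any KO embryo (up to adjusted p = 0.136). Rbbp7 is X-linked, and Xist was high in all 3 KO and 3 of 4 Het embryos but in 1 of 3 WT embryos; with this as a covariate the values were -0.30 in KO vs WT (adjusted p = 0.186) and -0.40 in KO vs Het (adjusted p = 0.0641). The class held 48 cells or more per embryo. Its own markers (7 genes, 0 rose and 2 fell) summed to 6460 to 6793 CPM in WT and 5269 to 5834 CPM in KO, and those of the subventricular zone (9 genes, 3 rose and 0 fell) to 116 to 154 and 215 to 219 CPM. Their part was not tested.

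Whether a change itself differed between kinds of cells was tested for progenitor-like against neuron-like cells (layer II-IV-, layer V-VI-, interneuron- and striatal inhibitory-like), with embryo as a block. Of the 9 members, 1 was called, against 9.8% of 16047 genes. Mbd2 was at 33.4, 35.7 and 39.6 CPM in progenitor-like cells of WT and 33.5, 36.7 and 35.4 CPM of KO, but at 26.5, 25.9 and 26.6 CPM in neuron-like cells of WT and 33.6, 34.2 and 32.2 CPM of KO. The KO embryos overlapped WT in the former and stood above WT in the latter. Of the classes pooled as neuron-like, Mbd2 was called in the layer II-IV- and layer V-VI-like ones but in neither inhibitory class. Its KO and WT ranges overlapped in the interneuron-like class, as given above. The pooled rise thus does not show a change shared by all neuron-like classes. Markers of the subventricular zone (9 genes) summed to 1387 to 1524 CPM in WT and 1847 to 1947 CPM in KO in progenitor-like cells, where 7 rose and 0 fell, and to 251 to 269 and 371 to 430 CPM in neuron-like cells, where 6 rose and 0 fell. Those of radial glia (12 genes) summed to 5840 to 7708 and 4284 to 6239 CPM in progenitor-like cells (1 rose and 5 fell). The part of these shifts was not tested. The progenitor-like change was lower than the neuron-like change by 0.40 on the log2 scale (-0.40, SE 0.072, adjusted p = 0.00102). Of the progenitor-like classes, radial glia-like cells had Mbd2 at 43.0 to 46.8 CPM in WT and 40.2 to 43.3 in KO (-0.09, adjusted p = 0.599), whereas subventricular zone-like cells had 18.6 to 21.9 and 22.5 to 26.0 CPM (0.31, SE 0.15, adjusted p = 0.166).

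For Hdac1 the difference was -0.22 (SE 0.070, adjusted p = 0.0444), under the fold threshold, with changes of 0.31 (SE 0.062) in progenitor-like and 0.51 (SE 0.047) in neuron-like cells. Both changes were called, as were 20.1% and 27.4% of genes in those sets. It lost the adjusted p under DESeq2 (0.0604), at clustering resolution 0.8 (adjusted p = 0.204), without a filter on low counts (adjusted p = 0.113), and without WT replicates 1 or 2, Het replicate 4, or KO replicates 2 or 3. For Hdac2 the difference was 0.00 (approximate interval by 2 SE from -0.09 to 0.09), with changes of 0.27 and 0.25. Mta1 had 0.10 (SE 0.060, adjusted p = 0.320), with changes of 0.29 in progenitor-like cells, called, and 0.16 in neuron-like cells (adjusted p = 0.0161, under the fold). In Het vs WT no difference was called for any member, and 1.61% of genes were.

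Paralogs that compete for a place in the complex were also compared as shares of their joint UMIs (plot of paralog shares). These shares depend on how well each 3′ end is captured, so a share is compared between classes or groups and not read as a protein ratio. Over all cells Hdac1 made up 10.3%, 10.6% and 11.5% of Hdac1 and Hdac2 in WT, 11.5%, 11.3%, 11.5% and 11.99% in Het, and 12.5%, 12.8% and 13.5% in KO. The KO embryos were above WT and Het, and the Het embryos overlapped WT. The difference was 2.14 percentage points in KO vs WT (exact permutation p = 0.10, the smallest that 3 against 3 allows, adjusted p = 0.16 over 8 tests) and 0.803 points in Het vs WT (exact permutation p = 0.0571, adjusted p = 0.16).

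Mta1 made up 47.3% to 48.4% of the MTA UMIs among WT embryos, 49.0% to 50.6% among Het embryos and 50.3% to 50.8% in KO, with both mutant groups above WT (exact permutation p = 0.0571 and 0.10). Mbd3 made up 84.4% to 84.5% of Mbd2 and Mbd3 in WT, 83.1% to 84.4% for Het and 82.4% to 83.4% for KO, so that KO was below WT and overlapped Het (exact permutation p = 0.171 and 0.10). Rbbp4 made up 71.1% to 72.5% of Rbbp4 and Rbbp7 in WT and 71.6% to 72.6% in KO. No share passed 0.05 after adjustment, and with 3 against 3 none could.

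By class, the Hdac1 share in WT was 33.0% in radial glia-like, 25.4% in the dividing cluster 14 and 22.3% in subventricular zone-like cells, against 9.66% in interneuron-like, 8.78% in layer II-IV-like, 6.75% in layer V-VI-like and 4.91% in striatal inhibitory-like cells. It was highest in mural and fibroblast-like cells (43.6%). In layer II-IV-like cells it was 8.30% to 9.43% in WT and 9.95% to 11.1% in KO, while the groups overlapped in layer V-VI-like, interneuron-like and radial glia-like cells (in the last, 30.7% to 34.2% and 33.1% to 35.3%). The Mbd3 share of layer II-IV-like cells was between 85.2% and 85.9% in WT and between 82.4% and 82.9% in KO, that of layer V-VI-like cells between 84.7% and 85.0% in WT and between 80.1% and 82.1% in KO, and that of subventricular zone-like cells between 90.5% and 91.5% in WT and between 88.1% and 89.3% in KO. In radial glia-like, interneuron-like and layer I-like cells and in the dividing cluster 14 the ranges overlapped. The Rbbp4 share of layer I-like cells was 51.6% to 60.0% in WT and 60.7% to 63.9% in KO. These class values are given as descriptions, without a test.

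**Figure D5:**
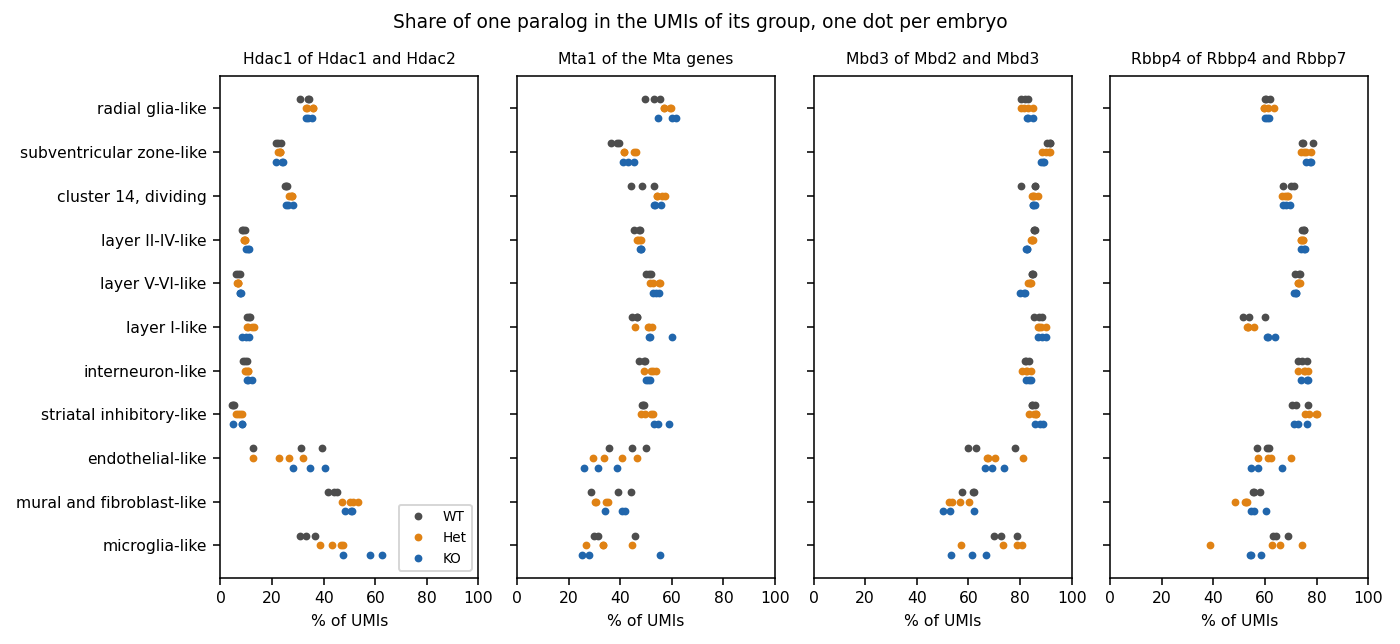
Share of the first-named paralog in the UMIs of its set, by class, 1 dot per embryo (gray WT, orange Het, blue KO). The Hdac1 share falls from radial glia-like (33.0% in WT) to layer V-VI-like cells (6.75%), and the Mbd3 share of layer II-IV-, layer V-VI- and subventricular zone-like cells is lower in each KO embryo than in each WT embryo.

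The other subunits of the complexes that hold these proteins were followed over all cells in KO vs WT, where 24.5% of all genes were called. Of the 7 other NuRD subunits 3 rose and 2 fell, and 1 rose and 1 fell in Het vs WT, against 2.98% of all genes called. Cdk2ap1, a small subunit linked to cell-cycle control, rose (76.7 ± 6.94 CPM in WT, 160 ± 19.6 in KO, log2 fold change 1.06, adjusted p = 0.000785) and Chd5, the neuronal CHD helicase, fell by 0.56 (79.0 ± 5.82 and 53.7 ± 3.69 CPM, adjusted p = 0.00229). Gatad2a, the paralog of Gatad2b, rose by 0.45 (50.3 to 68.5 CPM, adjusted p = 0.000214), and Cdk2ap2 rose by 0.30 (adjusted p = 0.00503); these last 2, and Brms1 below, were named after their values were seen. Chd3 and Chd4 were not called. With the prefix covariate the adjusted p was lost for Cdk2ap1 (0.35, adjusted p = 0.166), Chd5 (-0.28, adjusted p = 0.298) and Cdk2ap2 (0.08, adjusted p = 0.595), and with equal weight of classes for Gatad2a (0.05, adjusted p = 0.722).

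Of 13 genes of the Sin3 complex, another home of Hdac1 and Hdac2, 3 rose and 1 fell, a share near that of all genes. Sap30 rose by 0.43 (adjusted p = 0.000253), Sap30l by 0.32 (adjusted p = 0.00149) and Brms1 by 0.30 (adjusted p = 0.00448), and Arid4a fell by 0.33 (adjusted p = 0.00111). Of 9 genes of CoREST and MiDAC, Rcor2 alone was called (0.60, 49.98 ± 4.70 CPM in WT and 75.9 ± 4.67 in KO, adjusted p = 0.000236). Of 14 other histone deacetylases 0 rose and Hdac7 fell by 0.36 (adjusted p = 0.000426), and of 5 other MBD-family genes 0 were called. Among 12 other partners of Rbbp4 and Rbbp7, Hat1, the histone acetyltransferase of new histones, rose by 0.38 (adjusted p = 0.00256) and Ezh1 fell by 0.46 (adjusted p = 0.000792). Gatad2b itself is 1 of the 5 NuRD subunits called. Of these genes, the adjusted p was lost with equal weight of classes for Sap30 (0.21), Sap30l (0.16), Brms1 (0.17), Rcor2 (0.24), Hdac7 (-0.25) and Hat1, whose sign turned (-0.02, adjusted p = 0.916). With the prefix covariate it was lost for Sap30l (0.16), Brms1 (0.14), Arid4a (-0.15), Hdac7 (-0.28), Ezh1 (-0.26, adjusted p = 0.139) and Hat1 (0.39, adjusted p = 0.0872).

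Because Hdac1, Mta1, Mbd3, Rbbp4 and Rbbp7 had their highest class mean in the dividing cluster 14, cell-cycle genes were followed beside them. Over all cells 9 of 11 rose in KO vs WT and 2 in Het vs WT, against the same 24.5% and 2.98% of all genes, with a median log2 fold change of 0.39 in KO vs WT. Pcna rose by 0.61 (adjusted p = 0.00297), Mcm2 by 0.56 (adjusted p = 0.000785) and Cdk1 by 0.51 (adjusted p = 0.00214). With equal weight of classes none of these 3 passed (Pcna 0.33, Mcm2 0.14 and Cdk1 -0.03), and with the prefix covariate Pcna (0.18, adjusted p = 0.489) and Cdk1 (0.50, adjusted p = 0.0929) did not. Within layer II-IV-like cells their summed level was 125 to 127 CPM in WT and 118 to 125 CPM in KO, and within layer V-VI-like cells 100.2 to 104 and 101 to 108 CPM. They summed to 137 to 151 and 141 to 165 CPM in interneuron-like cells and to 98.1 to 107 and 101 to 125 CPM in striatal inhibitory-like cells, and in radial glia-like cells every KO embryo was above every WT embryo, as given above. These are the 5 classes in which Hdac1 was called, and the part of the cell-cycle genes in those calls was not tested. Over all cells their part in the Hdac1 result was not tested beyond the equal weight of classes given above.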

How the data were processed

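Single-cell libraries from the cortices of 10 E16.5 embryos (3 WT, 4 Het, 3 KO) were used. The authors deposited raw UMI counts per gene and barcode from Cell Ranger, for the mm10 genome; the file headers and the submitters' processing notes name version 6.0.2 and the methods name an earlier version. Strand settings are not given in the sources used here.

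Cells were kept at 1000 UMIs or more and at most 10% mitochondrial UMIs. They were integrated across embryos and clustered in Seurat 5.3.0 under R 4.3.3 (2000 variable genes without the members and other NuRD genes, 30 components, resolution 0.4), and clusters were named from marker lists. Doublets were scored by Scrublet in scanpy 1.11.5, whose own threshold called only 0.0341% to 2.53% of cells. A preset share of the highest scores, 0.8% per 1000 barcodes (4.80% to 8.31% of cells), was therefore marked, and removed only in an alternative. Counts were summed per embryo over all cells or within a class and fitted with edgeR 4.0.16 (TMM, filterByExpr, quasi-likelihood test, all 10 embryos), with Benjamini-Hochberg adjustment over all genes tested. Calls needed an adjusted p under 0.05 together with a log2 fold change beyond 0.25 in size. The difference between progenitor-like and neuron-like cells was an interaction term with the embryo as a block. Paralog shares were compared by exact two-sided permutation tests over embryos. For edgeR fits the SE was derived as the absolute log2 fold change divided by the square root of the test's F value. Intervals are 2 of these SE wide on either side and are approximate. The scripts were tested on simulated data.

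The members and the gene lists were chosen with earlier results of these data known. From each list up to 3 genes with the largest absolute log2 fold change among those called in KO vs WT were to be named, and 3 nearest patterns for each member. Of the 31053 gene IDs 30934 were found in the GENCODE annotation, which gave the coordinates, and promoters came from RefSeq. Alternatives were DESeq2 1.42.0, edgeR with the size factors of DESeq2, all genes without a count filter, a replicate block, the library prefix or Xist level (sex) as a covariate, only the 2 groups compared, doublets removed, at least 3000 UMIs, at most 5% mitochondrial UMIs, equal weight of classes, no integration, resolution 0.8 and each embryo left out in turn. Equal weight of classes was a limma test on the mean of log2(CPM + 1) over the 11 tested classes, large or small. Clusters 0 and 1 alone, and KO vs Het by class within 1 prefix, were added after seeing the data. In the small classes a member could have fewer than 100 UMIs per embryo, and counting error then limits the precision.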

Additional observations from a re-analysis of the deposited data

Results flagged for a closer look

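In layer V-VI-like cells, 1 of the 4 Het embryos stood apart for Hdac1: Het replicate 4, the 1 Het embryo whose library has the prefix of the WT libraries, was at 22.8 CPM and the other 3 at 21.2 to 21.5 CPM, so that the gap was 0.84 of the range of the group. Of 24 such groups of Het embryos this was the 1 past Dixon's limit, and chance gives about 1 in 20.

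The change of Mbd2 in KO vs WT differed between progenitor-like and neuron-like cells by -0.40 on the log2 scale, and that of Hdac1 by -0.22, both by the interaction term (edgeR's quasi-likelihood test, adjusted p = 0.00102 and 0.0444). For Mbd2 the changes were -0.04 and 0.34, and for Hdac1 0.31 and 0.51. The neuron-like value of Mbd2 is from pooled classes, of which the inhibitory ones alone were not called. In progenitor-like cells the summed markers of oligodendrocyte precursors were at 222 to 255 CPM in WT and 69.6 to 91.6 CPM in KO, those of radial glia at 5840 to 7708 and 4284 to 6239 CPM, and those of the subventricular zone at 1387 to 1524 and 1847 to 1947 CPM. In neuron-like cells the latter were at 251 to 269 and 371 to 430 CPM, and markers of layers V and VI at 760 to 905 and 1067 to 1251 CPM (10 genes, 3 rose and 2 fell). The part of these shifts in the difference was not tested.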

How the results depend on the processing

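Over all cells, the 1 member called in Het vs WT (Hdac1) became 0 with no filter on low counts, a replicate block, sex as a covariate, doublets removed, at least 3000 UMIs or equal weight of classes, and ranged from 0 to 1 when 1 embryo was left out (0 without WT replicate 1, Het replicate 1 or Het replicate 4). The 2 called in KO vs WT became 1 with sex as a covariate and 1 with equal weight of classes, and ranged from 1 to 4, and the 1 in KO vs Het became 0 with equal weight and was 1 with any embryo left out. The cause was not tested, except that Hdac1 in Het vs WT stood at 0.26 against a limit of 0.25. For pairs of member and class, the 2 called in Het vs WT became 4 with no filter, 0 at resolution 0.8 and 1 under the replicate block, prefix, sex, doublets removed and cluster 0 or 1 alone, with 0 to 2 when an embryo was left out. The 11 in KO vs WT became 6 with the prefix and 14 at resolution 0.8, and ranged from 9 to 12 with 1 embryo left out. Likewise, the 5 in KO vs Het ranged from 4 to 6, and the 1 difference between progenitor-like and neuron-like cells from 1 to 2. Over all cells, the share of all genes called in KO vs WT was 24.5% in the main fit, 8.31% with the prefix and 19.5% with sex. For the other alternatives that share is not given here, so their counts are not set against all genes. At most 5% mitochondrial UMIs, the Hdac1 share in Het vs WT became 1.29 points (exact permutation p = 0.0286), and the Rbbp4 share in KO vs WT -0.26 points. The latter ranged from -0.42 to 0.29 points, and that in Het vs WT from -0.69 to 0.019, with 1 embryo left out.

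Of the single genes named, 63 results under 1361 settings gave 1238 with the same direction and the same side of the adjusted p limit. A further 83 lost the adjusted p, 11 gained it and 29 changed sign. The fold threshold is not part of these counts, so calls lost on the fold alone stand among the 1238. With equal weight of classes the sign changed for Hdac2 in KO vs Het (-0.022), Mbd2 in Het vs WT (-0.016), Mbd3 in KO vs WT (-0.019) and KO vs Het (-0.020), Mta2 in Het vs WT (-0.042), Mta3 in Het vs WT (0.078) and KO vs Het (-0.0025), Rbbp4 in Het vs WT (-0.0035), Hat1 in KO vs WT (-0.021) and Cdk1 in KO vs WT (-0.029). With the prefix it changed in KO vs WT for Mta3 (-0.073), Rbbp4 (0.077) and Rbbp7 (0.058), and at most 5% mitochondrial UMIs for Mta3 (-0.0062) and Rbbp7 (0.013). In Het vs WT, sex gave 0.0083 for Mta3 and -0.011 for Rbbp4, and doublets removed gave 0.0063 for Mta3. With 1 embryo left out, the Het vs WT values ranged from -0.015 to 0.035 for Mta2, -0.039 to 0.045 for Mta3 and -0.014 to 0.032 for Rbbp4. All of these but Hat1 and Cdk1 were below the threshold.

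Embryos with the same replicate number did not deviate together (r between -0.185 and 0.125). These values cannot show whether they share a litter or a day of preparation, which the labels do not give. Under the replicate block, Hdac1 in Het vs WT had 0.24 (adjusted p = 0.00333), Mta2 -0.0040, Mta3 0.027 and Rbbp4 -0.0053, and 2 members were called in KO vs WT.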

Other observations

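The embryos differed in the marks of sex, which the labels do not give. Xist was at 1264 to 1452 CPM in 1 WT, 3 Het and all 3 KO embryos, and at 0.997 CPM or less in the others. Genes of the Y chromosome summed to 151 CPM in WT replicate 1 and to 135 CPM in Het replicate 2. WT replicate 3 had neither, with Xist at 0.144 CPM and Y genes at 0.196 CPM. The covariate for sex was coded by whether Xist exceeded the summed Y genes, which put WT replicate 3 with the embryos of low Xist.

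In microglia-like cells (21 to 44 per embryo), Hdac2 had a log2 fold change of -1.02 in KO vs WT that did not pass the test (edgeR's quasi-likelihood test, adjusted p = 0.0836). In that class the share of Hdac1 in the UMIs of Hdac1 and Hdac2 was 33.6% on average in WT and 55.9% in KO, and no test of it was made. The lowest KO embryo and the highest Het embryo had the same share, 47.4%. All WT embryos together held only 51 UMIs of Hdac1 and 100 of Hdac2 in this class. Counting error thus limits the precision of these shares.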
